A study of Mus musculus with 2 samples.

Results

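The cadherins and protocadherins on the array were all genes whose symbol in the array's gene table was Cdh or Pcdh followed by a number, or began with Pcdha, Pcdhb or Pcdhg. These were 71 of 26883 named genes, read by 128 probes, and 34 of them gave a signal well above background on both arrays. They comprised 18 classical cadherins (5 of type I and 13 of type II), 5 other Cdh genes, 12 non-clustered protocadherins and 36 clustered protocadherins. The clustered genes were 7 of the alpha, 22 of the beta and 7 of the gamma family.

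Cadherins are single-pass membrane proteins that hold neighbouring cells together through calcium-dependent contacts between their extracellular domains. Classical cadherins bind beta-catenin and p120-catenin inside the cell and through them the actin cytoskeleton, and their pattern helps to sort cells in the developing brain and to set how tumour cells migrate. Protocadherins lack the catenin-binding tail. Those of the alpha, beta and gamma clusters are chosen in combinations that give single neurons a surface identity, and the delta protocadherins regulate cell movement and axon growth.

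RNA was measured in a mouse glioblastoma stem cell line, grown as neurospheres from de novo tumours that the SB transposon had induced, in serum-free medium with B27, N2, EGF and bFGF. The control array held stably transduced cells carrying a lentiviral non-target hairpin, and the Stat5b-knockdown array held cells of the same line carrying a lentiviral hairpin against Stat5b. Both groups thus shared the line, the culture medium and the lentiviral transduction. Whether the transduced cells were a pool or 1 clone is not given in the sources used here. Stat5b is a transcription factor that cytokine and growth factor receptors switch on, and the question was which transcripts change when it is suppressed. With 1 array per group there was no replicate, no test was run and no p-value is given, and differences between cultures could not be told apart from differences between hairpins. In bulk RNA, fewer cells expressing a gene and less RNA per cell cannot be told apart either.

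The knockdown was seen on the array. The brighter Stat5b probe read 1991 (processed signal) on the control and 498 on the knockdown array, 25% of control, a log2 difference of -2.0 ± 0.20. Throughout, a difference is knockdown minus control on the log2 scale after scaling each array to its 75th percentile (signals of 493 and 494), and ± is the error that the scanner software gives to that difference, not a spread between cultures. Measured spreads were an SD of 0.056 between replicate spots of 1 probe (297 probes) and 0.31 between different probes of 1 gene (7244 genes). A gene's difference averages those of its probes that both arrays measured well above background, and a difference of 1 in size (2-fold) was counted. Signals of different probes are not on one scale, so levels are compared between arrays and not between genes. The labelled stem cell identity was seen in part. Nes (18174 and 15868), Vim (96090 and 88538) and Sox9 (965 and 1277) were well above background on the control and on the knockdown array, whereas Sox2 and Fabp7 were on neither array.

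No cadherin or protocadherin measured on both arrays reached 2-fold in either direction. Over all 16354 genes measured on both arrays, 3.67% were 2-fold or more higher on the knockdown array and 2.41% were 2-fold or more lower. The 34 members lay between -0.75 (Cdh5) and 0.99 (Cdh4), with 17 above 0 and 17 below. Their median of -0.02 stood beside 0.01 for all measured genes, whose middle part ran from -0.24 to 0.28 between the 25th and 75th percentiles. At 1.5-fold, a smaller fold added after the values were seen, 5 members were higher (Cdh4, Cdh13, Pcdh17, Pcdhac2 and Pcdha8) against 11.0% of all genes. At the same fold 4 members were lower (Cdh5, Cdh15, Cdh11 and Pcdhb17) against 8.42% of all genes. The members' shares were 14.7% higher and 11.8% lower. The count of lower members was 1 (Cdh15) with normexp, another background correction, and 7 with no filter on dim probes. Normexp was run with an offset of 50 added to each signal, which makes the differences of dim probes smaller. With it 190 of all genes were 2-fold higher and 168 lower, against 600 and 394 as reported. A smaller difference of a dim member under normexp is therefore partly set by the offset.

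**Figure D1:**
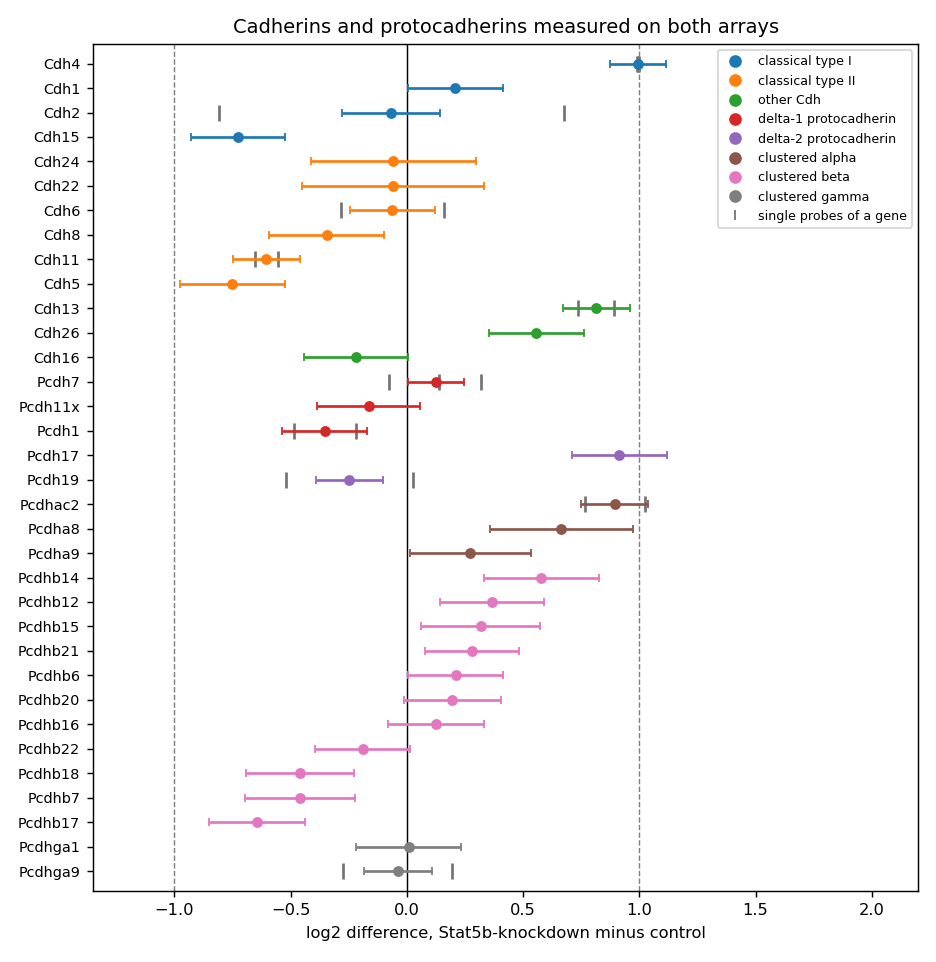
Log2 difference (knockdown minus control, horizontal axis) of the 34 cadherins and protocadherins measured on both arrays, by group, 1 row per gene. Points are gene means, bars the scanner software's error, grey ticks single probes where a gene has several, and dashed lines mark 2-fold. All points lie inside the dashed lines, Cdh4 at 0.99 nearest to them, and the ticks of Cdh2 lie on opposite sides of 0.

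Of the other 37 members, 5 gave such a signal on the control array alone, 1 on the knockdown array alone and 31 on neither. The share measured on both arrays was 47.9% of the members and 60.8% of all named genes. Among the member probes that were not well above background, the median signal was 2.91 on the control and 3.18 on the knockdown array, against 2.91 and 3.17 for all such probes. The lowest signal of any probe well above background was 12 on the control and 13 on the knockdown array. None of the 128 member probes was saturated.

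Cadherins and especially clustered protocadherins are similar in sequence, so the 60-base probes were compared with each other. The longest exact match between probes of different members was 14 bases, between Cdh6 and Cdh9, both type II cadherins. It is shown over bases 19 to 48 of each probe, with the shared run in capitals, because no probes of different members shared a longer run.
Cdh6 probe: actggggcCCTCGGTTCAAAAAgctggcag
Cdh9 probe: actggggaCCTCGGTTCAAAAAactcgcag
The Cdh6 probe gave signals of 55.6 and 45.7 on the control and knockdown arrays, while the Cdh9 probe gave 2.40 and 3.13, well above background on neither. Within the clusters the longest exact run between probes of different genes was 12 bases in the beta family (252 pairs), 11 in the alpha family (27 pairs) and 7 in the gamma family (34 pairs). No member's probe shared a run of 20 bases or more with a probe of another member. Matches with mismatches, and matches to transcripts outside the probe set, were not analysed here. Alternative first exons of the alpha and gamma clusters are spliced to constant exons shared by the whole cluster, and whether the alpha and gamma probes lie in those exons was not analysed here.

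A match of 20 bases or more to another named gene was found for 1 member probe. The Cdh26 probe shared 21 bases with a probe for Prr36, shown in capitals over bases 25 to 54 of each probe.
Cdh26 probe: ccctTGAACTGTGAGCCAGAATAAAccctt
Prr36 probe: acccTGAACTGTGAGCCAGAATAAAacctt
The same Cdh26 probe shared 20 bases with a probe for Gm35578. The Cdh26 value below therefore rests on a probe that is not fully distinct.

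Among type I cadherins, which share a conserved adhesive site in their outermost domain, Cdh4 was higher on the knockdown array and Cdh15 was lower, Cdh1 differed by about its error, and the probes for Cdh2 disagreed. Cdh4, or R-cadherin, is a retinal and brain cadherin. Its 3 probes gave signals of 1462, 675 and 83.2 on the control and 2924, 1340 and 166 on the knockdown array. Every Cdh4 probe was thus higher on the knockdown array, by 1.0, 0.99 and 0.99, and the gene by 0.99 ± 0.12, or 1.99-fold. Among all measured genes 3.77% were higher by as much. The 3 probes were independent in sequence, as the first 30 bases of each show, in the same order as the signals.
Cdh4 probe 1: ggcacagccctaacttgaatttcttaccac
Cdh4 probe 2: ttttttgtaatcgtcaacagcacaaatatt
Cdh4 probe 3: agaatcctattgacctgtacatctacgtca
The third of these probes lay in the last 64 rows of the array, where 7.22% of probes measured on both arrays differed 2-fold or more, against 5.47% in the other rows. Without those rows the Cdh4 difference was 0.99.

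Cdh15, or M-cadherin, is the cadherin of muscle precursors and of cerebellar granule neurons. Its single probe, whose first 30 bases are shown, gave 21747 on the control and 13160 on the knockdown array.
Cdh15 probe: ggcccatccttggctccatggcagataaac
The knockdown signal was 60.5% of control, a difference of -0.73 ± 0.20, and 5.46% of all measured genes were lower by as much. Among muscle markers, Myod1 was 2-fold lower on the knockdown array. Myod1, the myogenic master factor, gave 6753 and 2059, a difference of -1.71 ± 0.20. Myogenin (Myog) gave 3931 and 3439 (-0.19 ± 0.20), desmin (Des) 293 and 292 (-0.01 ± 0.20), and Myf5 was not well above background. All 3 measured of 4 muscle markers were thus below 0, but Myog and Des were inside their errors, so a shared direction was not shown. Their summed signal was 10980 on the control and 5795 on the knockdown array, and most of that fall was Myod1. The part of these markers in the Cdh15 result was not tested.

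Cdh1, or E-cadherin, the cadherin of epithelia, gave 521 and 602 on the control and knockdown arrays, a difference of 0.21 ± 0.20, about the size of its error. Of 6 epithelial markers 5 were measured, with a median of -0.08, and the list's summed signal was 18854 on the control and 17326 on the knockdown array. Keratin 8 (Krt8) gave 802 and 420 (-0.94 ± 0.14), alike in both of its probes, and was the only one of them 1.5-fold lower. Epcam, a defining epithelial gene, gave 33.7 and 34.5 (0.03 ± 0.27). The sum was mostly Krt19, which gave 16061 and 15236 (-0.08 ± 0.20). Their part in the Cdh1 values was not tested. Cdh2, or N-cadherin, the main cadherin of neural stem cells, was read by a bright and a dim probe. The bright Cdh2 probe gave 4141 and 6623, a difference of 0.68 ± 0.20, and the dim probe 24.9 and 14.2, a difference of -0.81 ± 0.37. The mean of -0.07 ± 0.21 therefore described neither probe. The bright probe is annotated to a RefSeq mRNA and the dim one to another transcript record. On the knockdown array the dim probe was close to the lowest signal well above background, 13. With brighter probes, the brightest probe or RefSeq mRNA probes, Cdh2 was at 0.68. Which transcripts the probes read was not analysed here, and the direction of Cdh2 was not settled by these arrays. The bright probe lay in the last 64 rows. Cdh3, or P-cadherin, was on neither array well above background (10.1 and 10.2).

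All 6 type II cadherins measured were below 0, with a median of -0.20, and 2 of them, Cdh5 and Cdh11, were lower by 1.5-fold or more. Of all 16354 measured genes, 7989 were below 0 and 8.42% were lower by 1.5-fold. Cdh6, Cdh22 and Cdh24 were each at -0.06, inside their errors, so a shared direction of all 6 was not shown. The other 4 lay between -0.34 and -0.06, and under a different background correction (normexp) Cdh22 was at 0.03. Without the filter on dim probes Cdh8 and Cdh24 were at 0.08 each, in a setting where the median of all genes was 0.10. Cdh11, or OB-cadherin, a cadherin of mesenchymal and bone-forming cells, was read by a pair of probes whose first 30 bases are shown, since both gave the same direction.
Cdh11 probe 1: ctcagggacaaccaaagtgacgatcactct
Cdh11 probe 2: catgctttaccacagccaggcgtttgccct
The first gave 2305 on the control and 1466 on the knockdown array (-0.65 ± 0.20), and the second 375 and 256 (-0.55 ± 0.20). The gene was lower by 1.5-fold, at -0.60 ± 0.14. Of 7 markers of fibroblasts and meningeal cells, which are mesenchymal, 6 were measured on both arrays. All 6 were higher on the knockdown array by 1.5-fold or more, against 11.0% of all genes, with a median of 0.93. They ran from 0.76 ± 0.13 (Col1a1) to 2.2 ± 0.33 (Pdgfrb, 16.6 and 76.1), and 2 of them passed 2-fold. The remaining marker, lumican (Lum), was seen on the control array alone, at 76.8 against 3.21. Its bound, which leaves out the software's error, was 5.92-fold higher there. Of all genes seen on the control array alone, 21.5% had a bound of 2-fold or more. The summed signal of the 7, by the brightest probe of each, was 1311 on the control and 3180 on the knockdown array. Their part in the Cdh11 result was not tested.

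Cdh5, or VE-cadherin, the junction cadherin of blood vessel endothelium, gave 84.7 on the control and 50.4 on the knockdown array. Its single probe is shown by its first 30 bases.
Cdh5 probe: acttattataagactctagttctcacagac
The difference of -0.75 ± 0.23 was the lowest of all members, and it was -0.39 with normexp. Endothelial genes gave little signal. Kdr, Tek, Tie1, Cldn5 and Emcn, 5 of 8 endothelial markers, were on neither array well above background. The other 3 were Pecam1 (50.2 and 60.1, difference 0.26), Vwf (150 and 146, difference -0.04) and Esam (27.7 and 25.9, difference -0.10). The summed signal of all 8, more of it from Vwf than from any other, was 246 on the control and 247 on the knockdown array. Their part in the Cdh5 result was not tested.

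The remaining type II cadherins gave low signals. Cdh8, a cadherin of defined brain regions, gave 49.9 and 39.3 from 1 of its 5 probes (-0.34 ± 0.25). Cdh6, or K-cadherin, had a pair of probes with signals of 55.6 and 26.4 on the control and 45.7 and 29.5 on the knockdown array. These probes disagreed in sign (-0.28 and 0.16), and the gene was at -0.06 ± 0.18. Cdh22 gave 18.1 and 17.4 (-0.06 ± 0.39) and Cdh24 gave 21.3 and 20.5 (-0.06 ± 0.35), differences well inside their errors. Cdh12 was seen on the control array alone, at 16.3 against 13.6. The difference of -0.27 ± 0.46 was smaller than its error, so this ratio of 1.21-fold sets no lower limit. Cdh7, Cdh9, Cdh10, Cdh18, Cdh19 and Cdh20, most of them cadherins of neuron subtypes, Schwann cells or neural crest, were on neither array well above background. Of the Schwann and neural crest markers, 2 of 5 were measured, and their summed signal was 322 on the control and 397 on the knockdown array.

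**Figure D2:**
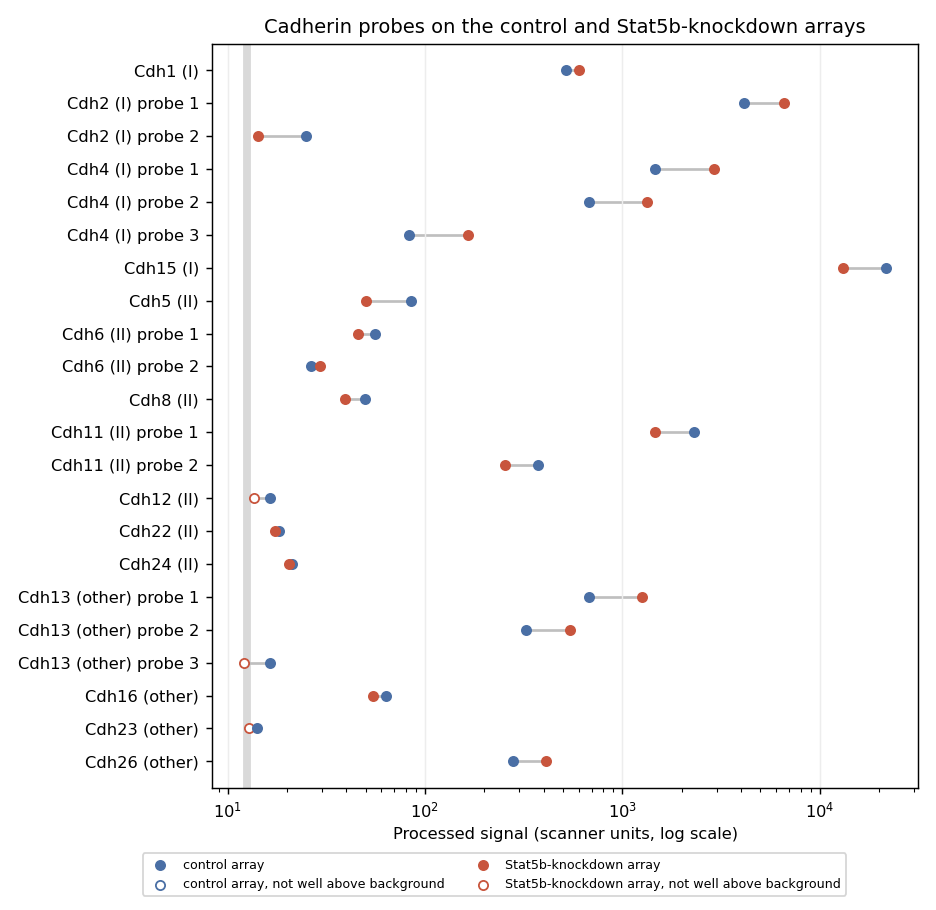
Processed signal (scanner units, log axis) of each Cdh probe that was well above background on at least 1 array, with type I, type II and other Cdh genes marked after the name. Blue is the control and red the Stat5b-knockdown array, open circles were not well above background, and the grey band is the lowest signal counted as above it. The Cdh4 and Cdh13 pairs run to the right (knockdown higher) except the dimmest Cdh13 probe, those of Cdh15, Cdh5 and Cdh11 run to the left, and the Cdh2 probes run opposite ways.

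Of the 5 other Cdh genes, Cdh13 and Cdh26 were higher on the knockdown array and Cdh16 differed by about its error. Cdh13, or T-cadherin, is held to the membrane by a lipid anchor in place of a cytoplasmic tail and is a receptor for adiponectin. Its pair of brighter probes, shown by their first 30 bases, gave 678 and 324 on the control and 1259 and 541 on the knockdown array.
Cdh13 probe 1: acatcacggacctcaaggtgcaggtgtgct
Cdh13 probe 2: acagtccctgataaagtctggaagatctcc
They were higher by 0.89 ± 0.20 and 0.74 ± 0.20, and the gene by 0.81 ± 0.14. The second lay in the last 64 rows, and without those rows the difference was 0.89. Another Cdh13 probe was dim and ran the other way, with 16.5 on the control array and a signal of 12, not well above background, after knockdown. Averaged over all 6 Cdh13 probes with no filter on dim ones, the difference was 0.39. Cdh26, a cadherin described in gastrointestinal epithelium, gave 278 and 409, a difference of 0.56 ± 0.20, from the probe whose sequence is shared with Prr36. Averaged with its other probe, which was not well above background, it was at 0.19. Cdh16, the kidney cadherin, gave 63.2 and 54.3 (-0.22 ± 0.22), and 0.13 when averaged with a probe not well above background. Cdh23, a component of the tip links of hair cells, was seen on the control array alone, at 14.2 against 12.8. The bound was 1.09-fold, but the difference of -0.14 ± 0.48 was smaller than its error. Cdh17, the liver and intestine cadherin, was on neither array well above background.

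Of the cadherins, 8 lie on chromosome 8, in the order Cdh8, Cdh11, Cdh5, Cdh16, Cdh3, Cdh1, Cdh13 and Cdh15 in the RefSeq annotation. The first 4 in this order were at -0.34, -0.60, -0.75 and -0.22, all below 0. With no filter on dim probes Cdh8 was at 0.08 and Cdh16 at 0.13, so the shared direction was not seen without that filter. Those averages take in probes not well above background, and the median of all genes under that setting was 0.10. They therefore say little about the direction of either gene. Of the last 4, Cdh3 was not well above background, Cdh1 was at 0.21, Cdh13 at 0.81 and Cdh15 at -0.73, so the measured genes at that end differed in direction.

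Among the 12 non-clustered protocadherins, Pcdh17 was higher on the knockdown array by 1.5-fold or more, 4 others were measured and none of them reached that fold, and 7 were on 1 array or neither. Pcdh17, a delta-2 protocadherin that recruits the WAVE complex to axon contacts, gave 257 on the control and 484 on the knockdown array. The probe's first 30 bases are shown.
Pcdh17 probe: tccaagctacaccaaacattaacccatatt
The difference was 0.91 ± 0.20, and 4.56% of all measured genes were higher by as much. Another Pcdh17 probe gave 12 and 11.8, on neither array well above background, so the result rests on 1 probe, and averaged with the dim one the difference was 0.44. Pcdh19, the other delta-2 protocadherin measured and the gene of an X-linked epilepsy, was read by a pair of probes that disagreed, at 2080 and 2118 (0.03 ± 0.20) and at 503 and 351 (-0.52 ± 0.20). Its mean was -0.25 ± 0.14.

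Of the delta-1 protocadherins, whose tails bind protein phosphatase 1, Pcdh1 gave 926 and 27.1 on the control and 662 and 23.3 on the knockdown array from its measured pair of probes. These were at -0.49 and -0.22, the gene was at -0.35 ± 0.18, and both probes lay in the last 64 rows. The 3 probes of Pcdh7 gave 279, 247 and 72.4 on the control and 264, 308 and 79.7 on the knockdown array. Their differences of -0.08, 0.32 and 0.14 had a mean of 0.13 ± 0.12, about its error. Pcdh11x gave 74.4 and 66.5 from 1 of 3 probes (-0.16 ± 0.22). Pcdh9 was on neither array well above background, nor were Pcdh8, Pcdh10 and Pcdh18 of the delta-2 kind, nor Pcdh20.

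Pcdh12, an endothelial protocadherin also called VE-cadherin-2, was seen on the control array alone. It gave 27.9 there and 8.17 on the knockdown array, a difference of -1.77 ± 0.52. Its bound, which leaves out that error, was 2.15-fold higher on the control array. It was the only member seen on 1 array whose bound passed 2-fold. Of all genes seen on the control array alone, 21.5% had a bound of 2-fold or more. With the 1st percentile of signals well above background as the floor, the Pcdh12 bound was 1.79-fold. As above, 5 of 8 endothelial markers were not well above background, and the summed signal of all 8 was 246 on the control and 247 on the knockdown array. Their part in the Pcdh12 result was not tested. Pcdh15, the tip link partner of Cdh23, was seen on the control array alone by 1 of its 7 probes, at 19.7 against 16.2. The difference of -0.28 ± 0.42 was smaller than its error, so this ratio of 1.22-fold sets no lower limit. Both tip link genes were thus at the edge of detection.

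The 36 clustered protocadherins lie together on chromosome 18, where 39 of the 71 members lie. Of them 16 were measured on both arrays, 11 above 0 and 5 below, with a median of 0.20. In the alpha family all 3 measured genes were above 0, with a median of 0.66, and Pcdhac2 and Pcdha8 were higher by 1.5-fold or more. Pcdhac2, the last variable exon of the alpha cluster and one that is not chosen at random but made in most neurons of some types, had a pair of probes. They gave 1088 and 555 on the control and 1849 and 1128 on the knockdown array. Both were higher, by 0.76 ± 0.20 and 1.02 ± 0.20, and the gene by 0.89 ± 0.14. Among all measured genes 4.87% were higher by as much.

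Pcdha8 and Pcdha9, variable exons of the kind chosen at random, gave low signals. Pcdha8 gave 20.9 and 33.1 (0.66 ± 0.31), and with normexp its difference was 0.21. Pcdha9 gave 36.6 and 44.2 (0.27 ± 0.26), about its error. With normexp the alpha median was 0.21 as well, while Pcdhac2 stayed at 0.88. Pcdha4, Pcdha11, Pcdha12 and Pcdhac1, the neighbour of Pcdhac2, gave signals of 2.44 to 2.87 on the control array and were on neither array well above background. Both arrays thus gave a signal from the probes named Pcdhac2 and none well above background from the Pcdhac1 probe. Whether the Pcdhac2 probes read that variable exon or constant exons shared by the whole cluster was not analysed here.

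In the beta family, whose genes are single exons with no constant part, 11 of 22 genes were measured, 7 above 0 and 4 below, with a median of 0.20. None was higher by 1.5-fold and 1 was lower. Pcdhb14 had the highest difference, with 35.1 on the control and 52.5 on the knockdown array (0.58 ± 0.25), and 0.33 with normexp. Pcdhb12 followed with 60.5 and 78.0 (0.36 ± 0.22), and Pcdhb15 with 36.0 and 45.0 (0.32 ± 0.26). Pcdhb17 had the lowest, with 329 and 211 (-0.64 ± 0.21), and with normexp it was at -0.39, short of 1.5-fold. It was read by 1 probe, in the last 64 rows. Pcdhb7 gave 53.6 and 39.0 (-0.46 ± 0.24), and Pcdhb18 gave 69.9 and 50.9 (-0.46 ± 0.23).

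Among the beta probes with more signal, Pcdhb21 gave 1175 and 1429 (0.28 ± 0.20), and Pcdhb22, its neighbour, gave 292 and 256 (-0.19 ± 0.21). Pcdhb6 (247 and 285), Pcdhb16 (227 and 248) and Pcdhb20 (129 and 148) lay between 0.13 and 0.21, each within about its error, and Pcdhb6 was at -0.43 when averaged with a probe not well above background. Measured beta genes were gathered at the end of the cluster. From Pcdhb14 to Pcdhb22 all genes but Pcdhb19 were measured, whereas from Pcdhb1 to Pcdhb13 only Pcdhb6, Pcdhb7 and Pcdhb12 were measured on both arrays. Apart from Pcdhb3, the arrays did not differ in which beta genes were well above background. Pcdhb3 was seen on the knockdown array alone, at 17.9 against 7.64 (1.23 ± 0.58), with a bound of 1.48-fold higher there. Its bound did not reach 2-fold, while 39.8% of all genes seen on the knockdown array alone did.

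In the gamma family 2 of 7 genes were measured, and the mean of neither differed beyond its error. Pcdhga9 had a bright probe with 10926 and 12523 (0.20 ± 0.20) and a dimmer one with 372 and 308 (-0.27 ± 0.20), with a mean of -0.04 ± 0.14. Pcdhga1 gave 57.5 and 57.8 (0.01 ± 0.23). Pcdhga10 was seen on the control array alone, at 16.9 against 14.8. The difference of -0.20 ± 0.45 was smaller than its error, so this ratio of 1.15-fold sets no lower limit. Pcdhga5, Pcdhga12, Pcdhgb1 and the C-type Pcdhgc5 were on neither array well above background. The Pcdhga9 probes thus disagreed in sign, and their place in the transcript was not analysed here.

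**Figure D3:**
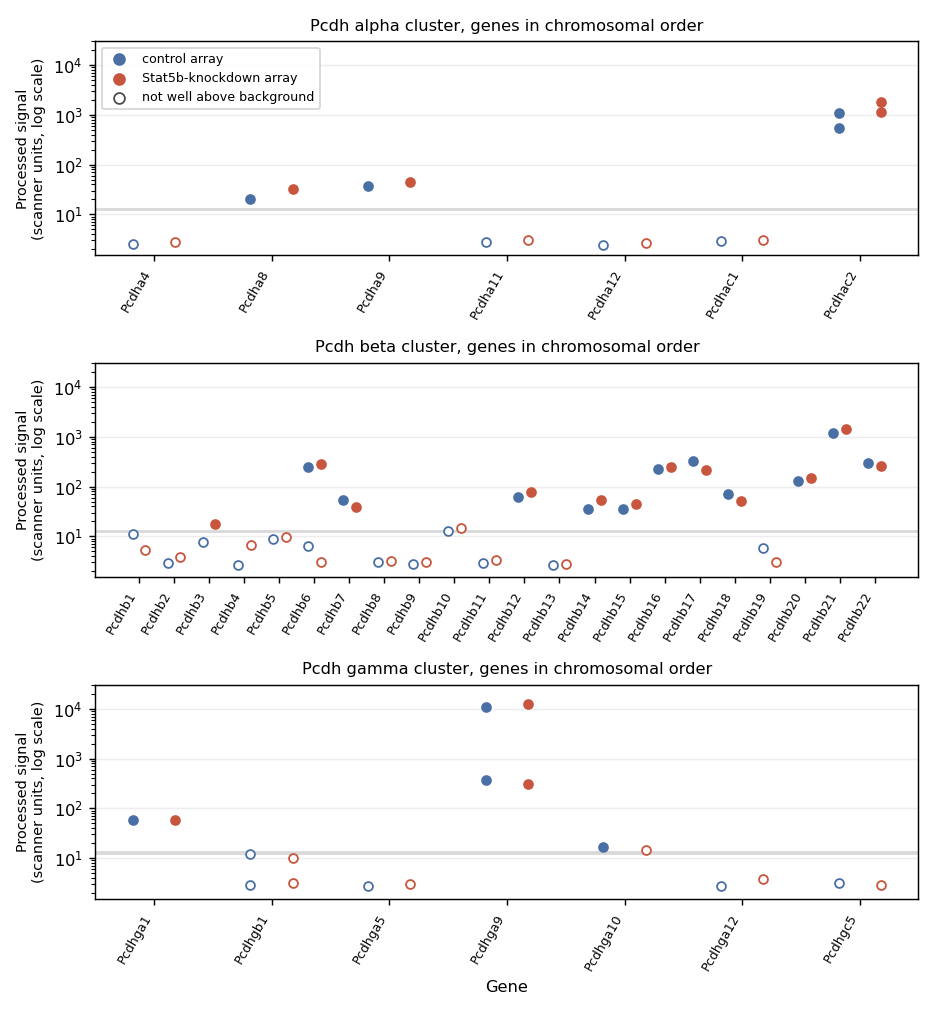
Processed signal (scanner units, log axis) of each probe of the alpha, beta and gamma protocadherin clusters, genes in chromosomal order and not to scale. Blue is the control and red the Stat5b-knockdown array, filled circles were well above background and open ones were not, and the grey band is the lowest signal counted as above it. In the alpha cluster filled circles stand at Pcdha8, Pcdha9 and Pcdhac2, and in the beta cluster at every gene from Pcdhb14 to Pcdhb22 but Pcdhb19, and at Pcdhb6, Pcdhb7 and Pcdhb12. Of the probes filled on both arrays, 1 Pcdhac2 probe is 2-fold apart (555 and 1128), while Pcdhb3, filled on the knockdown array alone, gave 7.64 and 17.9.

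The genes that cadherins work with were read as lists chosen by role, and their medians stand beside the 0.01 of all measured genes, of which 3.67% were 2-fold higher and 2.41% lower. Of 15 catenins and linked proteins 12 were measured, 5 above 0 and 7 below, none 2-fold in either direction, with a median of -0.17. Beta-catenin (Ctnnb1) gave 1909 and 2081 (0.12 ± 0.12), the actin linker vinculin (Vcl) 2807 and 2884 (0.04 ± 0.14) and the desmosomal plakophilin Pkp1 2532 and 2247 (-0.17 ± 0.20). All 3 differed by about their error or less. Alpha-catenin (Ctnna1) was at -0.29 ± 0.15 and p120-catenin (Ctnnd1) at -0.33 ± 0.12. Ctnna2, the neuronal alpha-catenin, gave 19.4 and 36.4 (0.91 ± 0.32), and 0.23 with normexp. Of the catenins measured, Arvcf (273 and 182, -0.59 ± 0.12) had the lowest difference.

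Of 27 other genes of the cadherin superfamily 12 were measured, 7 above 0 and 5 below, with a median of 0.22. Celsr1 passed 2-fold and none was 2-fold lower. Celsr1, a cadherin of planar cell polarity, gave 663 on the control and 1777 on the knockdown array, a difference of 1.42 ± 0.20. Celsr1 was above 2-fold under all 8 alternatives to the processing, but few of these could have changed it. It was read by 1 probe, so alternatives that choose among probes or leave out array rows could only keep or drop its value. Median scaling (1.41) and the authors' values (1.42) differ from the reported value by a shift common to all genes. With normexp, which changes the background correction, it was at 1.34. Fat1, the atypical cadherin that limits growth, gave 1192 and 1404 (0.23 ± 0.20), and calsyntenin 1 (Clstn1), a transport adaptor, gave 570 and 831 (0.54 ± 0.14). All 6 desmogleins (Dsg1a, Dsg1b, Dsg1c, Dsg2, Dsg3 and Dsg4), the cadherins of desmosomes, were on neither array well above background.

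Of 14 transcription factors that repress or switch cadherins 12 were measured, 6 above 0 and 6 below, none 2-fold, with a median of -0.05. Snai1 and Snai2, repressors of Cdh1, gave 442 and 3490 on the control and 259 and 2094 on the knockdown array, differences of -0.78 ± 0.20 and -0.74 ± 0.20. Twist2, another factor of the mesenchymal switch, gave 1084 and 1682 (0.63 ± 0.20), and Ovol2, which represses Zeb1, gave 3761 and 3922 (0.06 ± 0.20). Beside these, Cdh1 was at 0.21 ± 0.20 and the Cdh2 probes at 0.68 and -0.81, and a link between them was not tested. All 9 sheddases and gamma-secretase genes, which cut cadherins at the membrane, were measured, 7 above 0 and 2 below, none 2-fold, with a median of 0.30. Adam10, the main sheddase of N- and E-cadherin, gave 724 and 969 (0.42 ± 0.15), Adam9 gave 8575 and 7998 (-0.10 ± 0.20) and Adam15 gave 5206 and 6248 (0.26 ± 0.12).

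All 16 regulators of the protocadherin clusters, which fold the cluster, methylate its promoters or silence it, were measured. Of these 5 were above 0 and 11 below, none 2-fold, with a median of -0.29. The clustered protocadherins had a median of 0.20 over the 16 of 36 that were measured, and a link between the lists was not tested. Ctcf, the factor that loops the promoters to their enhancers, gave 2540 and 2032 (-0.32 ± 0.20). The cohesin subunits Rad21 (17322 and 15463, -0.17 ± 0.20) and Smc3 (4008 and 3085, -0.38 ± 0.14) were on the same side, and the zinc finger protein Wiz gave 3805 and 3941 (0.05 ± 0.20). The cohesin subunit Stag2 was at -0.85 ± 0.14, Stag1 at -0.73 ± 0.13 and the methyltransferase Dnmt1 at -0.76 ± 0.20. The pair of Stag2 probes differed from each other, at -1.31 and -0.39.

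Of 15 genes of protocadherin signalling 14 were measured, 4 above 0 and 10 below, with a median of -0.12. Marcks, an actin-binding membrane protein and substrate of protein kinase C, was 2-fold lower, with 1562 on the control and 394 on the knockdown array (-1.99 ± 0.15). The small GTPase Rhoa gave 8472 and 4339 (-0.97 ± 0.20), Rac1 gave 17908 and 15133 (-0.24 ± 0.20), and Wasf2, a subunit of the WAVE complex, gave 4187 and 2842 (-0.56 ± 0.10). Another WAVE complex subunit, Cyfip2, was seen on the knockdown array alone, at 34.4 against 11.1. Its bound, which leaves out the software's error, was 2.84-fold higher there. Of all genes seen on the knockdown array alone, 39.8% had a bound of 2-fold or more. Nckap1 (-0.16 ± 0.12) and Cyfip1 (-0.02 ± 0.12), subunits of the same complex, were not 2-fold different.

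**Figure D4:**
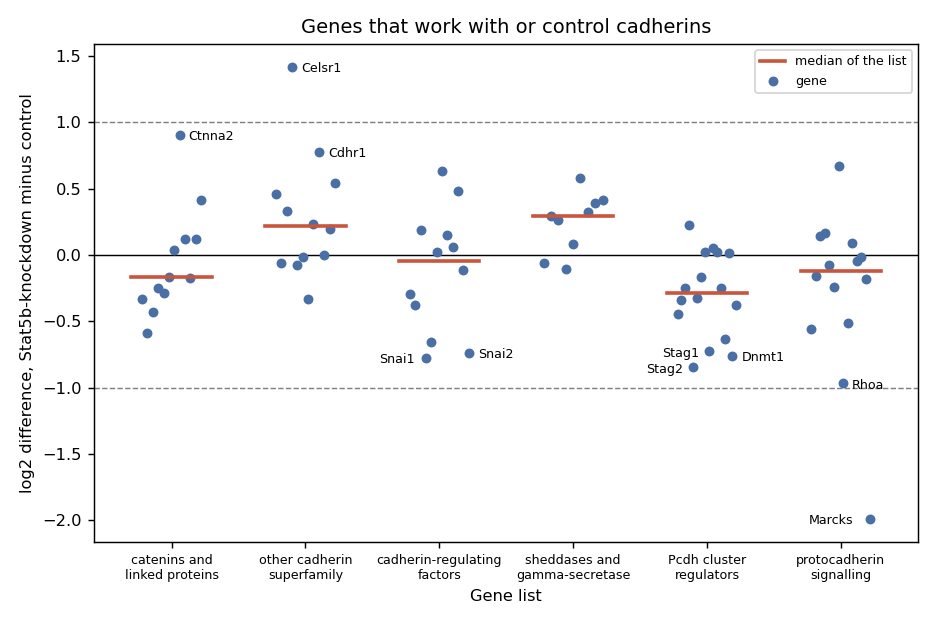
Log2 difference (knockdown minus control, vertical axis) of every gene measured on both arrays in 6 lists of genes that work with or control cadherins. Points are genes, spread sideways for legibility, red bars are list medians and dashed lines mark 2-fold. Celsr1 at 1.42 and Marcks at -1.99 lie outside the dashed lines, and the medians run from -0.29 (cluster regulators) to 0.30 (sheddases).

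The promoters of the members were searched for motifs of STAT, Snai, Zeb and Myod1. In the RefSeq promoter set of build GRCm38.p6 (250 bases before to 50 after each start), 22 of the 71 members had an entry, with 25 promoters in all. No clustered protocadherin had an entry. Of the 9 members counted at 1.5-fold, Cdh15 and Pcdh17 had one, and the others were not searched. The shares below therefore do not describe most of the members that differed. The palindromic STAT motif TTCNNNGAA was in 0 of the 25, against 8.3% of all 32851 promoters of the same length. The E-box CAGGTG, to which Snai and Zeb factors bind, was counted on both strands and was in 5 of the 25 (20.0%), belonging to 3 genes, Cdh7, Pcdh7 and Pcdh15, against 20.2% of all promoters. The palindrome CAGCTG, an E-box bound by Myod1 and a different word from the former, was in 3 of the 25 (12%), against 16.3% of all promoters. The Cdh15 promoter held none of the 3 motifs. Of the genes with the first E-box, Pcdh7 was measured on both arrays, and its match, in capitals, lies 32 bases after the start, within the 30 bases shown from the plus strand at chr5:57718101-57718130.
Pcdh7 E-box: gcgggccgaatgCAGGTGagggaaggcacg
A match is a description of the letters in this window and not a site of binding.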

How the data were processed

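Each deposited scanner file holds an intensity and its error for 62976 spots. Per the file headers, images were quantified in Agilent Feature Extraction 12.1.0.3 with settings GE1_1200_Jun14, which correct signals for background. The authors also deposited log2 values. For 100% of probes with 1 spot these differed from the log2 processed signal by a fixed shift of each array (tolerance 0.001), which sets the 75th percentile to 0. The column medians are -3.83 and -3.83. Flags for spots well above background, saturated or outlying were taken as deposited in the files.

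Computed here (Python 3.11.15): outlier spots (112 and 94) were left out, log2 signals were averaged per probe, with signals under 1 set to 1, and scaled to the 75th percentile of the array's non-control probes. A gene's value averaged its probes that were well above background on each array (59.5% of probes on the control and 58.6% on the knockdown array). A probe seen on 1 array had a bound against the higher of its own signal and the lowest signal well above background on the other array. Where its own signal was the higher, the bound is a plain ratio. No bound takes in the software's error. The calculation was tested on simulated data. Genes were named by accession or symbol through a RefSeq table of GRCm38.p6, used for names and order because the array design names build mm9. The number of arrays limits the precision.

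Every Cdh gene and non-clustered protocadherin with a signal is named. In each clustered family the members past 2-fold, the 3 highest and 3 lowest differences, measured C-type isoforms and the 3 brightest are named, and in each list the members past 2-fold and the 3 brightest. Others named from the lists (Ctnna1, Ctnnd1, Ctnna2, Arvcf, Snai1, Adam10, Ctcf, Stag1, Stag2, Dnmt1, Nckap1, Cyfip1) were chosen after their values were seen. Members and lists were chosen with earlier results of these data known. Alternatives were median scaling, normexp (limma 3.58.1, offset 50, on median signal and local background), the authors' values, no filter on dim probes, brighter probes (log2 signal of at least 6), the brightest probe of a gene, RefSeq mRNA probes and leaving out the last 64 rows. The 1.5-fold count was added after the values were seen.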

Additional observations from a re-analysis of the deposited data

How the results depend on the processing

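The 8 alternatives gave 354 values for 45 counts, medians and listed results, of which 337 lay within the margin of the reported value. The margin was 0.31 for a median or a gene's difference, the SD between probes of 1 gene. For a count it was an equal count or a ratio of up to 1.5. It is wider than most of the medians, and every 2-fold count of a member group was 0 as reported, so 337 is a lenient figure. No paired analysis was possible because each group has 1 array. Without the filter on dim probes, which moves the median of all genes to 0.10 and gives 1282 genes higher and 1000 lower, 2 members were 2-fold higher (Pcdhb3 and Pcdhb4) and 2 lower (Pcdh12 and Pcdhb1). By group these were 2 higher and 1 lower in the beta family and 1 lower among non-clustered protocadherins, and 7 members were 1.5-fold lower. Under that setting the medians of the other Cdh genes and of the alpha family were 0.13 and 0.12, the other cadherin superfamily had 2 genes higher and 1 lower, and the cluster regulators 1 lower. With brighter probes alone the median of all Cdh genes was 0.38 (-0.06 as reported). With normexp the alpha median was 0.21, 1 member was 1.5-fold lower (Cdh15), and 190 of all genes were 2-fold higher and 168 lower. Among cluster regulators 2 were 2-fold lower with the brightest probe and 1 (Stag2, -1.31) with RefSeq mRNA probes. With the 1st percentile of signals as the floor, 0 members had a bound of 2-fold. The cause was not tested. Cdh2 was at 0.68 with brighter probes, the brightest probe or RefSeq mRNA probes, and was then counted as 1.5-fold higher. It was at 0.28 with normexp. Without the last 64 rows it was at -0.81 and counted as 1.5-fold lower. Over the 34 measured members the alternatives gave 254 values, of which 15 moved beyond the margin and 16 had the other sign. None of those 16 was among the 70 values of the 9 members counted at 1.5-fold. Those 9 were picked for the size of their differences, which makes a change of sign unlikely. Signal over background limits the dim members, since probes below about 12 to 13 give no level.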
